A study of Mus musculus with 2 samples.

Results

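Ribosomal protein processed pseudogenes are copies of ribosomal protein messages in the mouse genome. They were chosen by name and annotation: a gene was a member if GENCODE M21, an annotation of mouse build mm10, gives it a pseudogene class and a symbol made of a ribosomal protein root, "-ps" and, in nearly all cases, a number, as in Rps23-ps1. No measured value entered this choice. The rule finds 294 symbols, of which 251 have a row among the 43346 genes measured here, and the other 43 were not analysed here. Of the 251 members, 249 have a coding gene of the same root in the tables, called the parent below, and there are 56 such parents. Rps4l-ps and Rpl48-ps1 have none and were listed at 0 in both libraries.

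The data are 2 total RNA-seq libraries of lung from B6NCrl mouse embryos of day 16.5, a single group with no treatment or mutation in the labels. Each library is a pool of male and female embryos, 41 for replicate 2 and of a number the labels do not give for replicate 1. Each was made from 10 ng of RNA longer than 200 nt with added spike-ins. With a single group there are no conditions to compare, so the text describes levels, member-to-parent ratios and how far the 2 pools differ, with no p-value. Over 2 replicates an exact sign-flip test of a ratio cannot go below a two-sided p of 0.5. Levels are in TPM, a unit that sums to 1 fixed total per library, is per length and can be compared between genes of a library.

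Ribosomal proteins build the large (Rpl) and small (Rps) subunits of the ribosome, and their coding genes are among the most strongly transcribed in growing tissue. A processed pseudogene arises when a messenger RNA is copied back into DNA by the reverse transcriptase of a retrotransposon and inserted elsewhere, without introns and without the promoter of its parent. Because ribosomal protein messages are abundant, they have left many such copies, which differ from the parent only by the substitutions, insertions and losses gathered since. A short read from a stretch that the copy and the parent share does not show which of them it came from, and the deposited estimates divide such reads between them by a model.

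Of the members, 150 are named for proteins of the large subunit and 101 for the small one. The roots with the most copies are Rpl31 and Rps12 with 21 each, Rps19 and Rpl23a with 14 each, and Rpl21 with 12. Members lie on 20 chromosomes, 35 of them on the X, and 242 are a single exon. Their lengths run from 172 to 1214 nt with a median of 441 nt. No other annotated gene overlaps 173 of them, 50 lie in an intron of a gene on the opposite strand and 21 in an intron of a gene on the same strand. The rest overlap an exon, 5 on the same strand and 2 on the opposite one.

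The sequences below show why these genes are hard to tell apart: copies with no difference, and others with a few. Each is part of the coding sequence of the parent, from GENCODE M21 transcripts, followed by the aligned bases of the pseudogene with bases that differ in capitals. Positions count from 1 at the A of the parent's start codon, and a substitution gives the parent's base, the position and the pseudogene's base. Rps23-ps1 (ENSMUSG00000100755) has no difference from Rps23 over positions 1 to 60 or over the rest of its alignment, and its bases here are chr3:37714740-37714799 on the plus strand.
Rps23: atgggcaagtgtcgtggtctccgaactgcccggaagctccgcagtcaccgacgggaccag
Rps23-ps1: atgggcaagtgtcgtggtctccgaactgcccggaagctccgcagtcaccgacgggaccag

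Rpl10-ps1 (chr2:105554356-105554415, minus strand) is also free of differences from Rpl10, whereas Rpl10-ps6 (chr19:37295307-37295366, minus strand) carries C457T, its one substitution, which turns an arginine codon into a stop after 152 codons. Positions 431 to 490 are shown.
Rpl10: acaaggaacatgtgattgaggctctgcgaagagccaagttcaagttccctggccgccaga
Rpl10-ps1: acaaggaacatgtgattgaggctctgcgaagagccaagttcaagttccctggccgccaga
Rpl10-ps6: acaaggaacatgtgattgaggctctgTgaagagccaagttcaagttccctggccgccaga

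Rpl35a-ps2, Rpl35a-ps3, Rpl35a-ps4 and Rpl35a-ps6 have the same sequence on 4 chromosomes and differ from Rpl35a by G156A alone, at the third base of a lysine codon. Rpl35a-ps3 (chr17:29137115-29137174, minus strand) stands for them over positions 131 to 190. Rpl35a-ps5 (chr5:33076168-33076227, plus strand) adds A171G here, and Rpl35a-ps7 (chr6:47815443-47815502, minus strand) has G135A, G156A, A163C, T173C and G174A.
Rpl35a: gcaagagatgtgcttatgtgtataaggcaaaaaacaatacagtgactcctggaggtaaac
Rpl35a-ps3: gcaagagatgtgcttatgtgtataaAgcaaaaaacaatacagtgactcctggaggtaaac
Rpl35a-ps5: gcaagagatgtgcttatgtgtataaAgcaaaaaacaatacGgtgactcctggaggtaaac
Rpl35a-ps7: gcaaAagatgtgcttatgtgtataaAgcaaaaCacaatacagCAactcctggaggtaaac

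Rps27a-ps2 (chr9:83410000-83410059, plus strand) differs from Rps27a, which encodes ubiquitin fused to a small-subunit protein, by A375G alone. Positions 341 to 400 are shown.
Rps27a: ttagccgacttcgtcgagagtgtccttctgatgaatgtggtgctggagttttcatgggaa
Rps27a-ps2: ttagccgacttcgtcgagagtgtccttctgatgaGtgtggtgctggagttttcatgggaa

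Rpl21-ps15 (chrX:151215210-151215319, minus strand) differs from Rpl21 at T336C, G378A and T432C, which all lie within the 110 bases shown, from position 331 on.
Rpl21: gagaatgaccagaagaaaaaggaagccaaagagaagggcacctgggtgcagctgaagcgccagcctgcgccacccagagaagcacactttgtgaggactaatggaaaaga
Rpl21-ps15: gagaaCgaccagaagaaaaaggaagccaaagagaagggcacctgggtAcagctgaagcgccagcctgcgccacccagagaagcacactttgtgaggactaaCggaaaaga

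To measure how much of a member can be told from other genes, each was split into overlapping windows of 100 nt. That length was taken because the effective length in the deposited tables is 99 nt shorter than the gene, so a window is one position that a fragment can take. Each window was searched in the annotated transcripts of the other genes on both strands. In 28 members no window was unique, and in 95 every window was. In 11 members every window was also in the parent's transcripts, and these are also the 11 with no mismatch and no gap against the parent's coding sequence. The median identity to the parent was 96.5% over all aligned members. The reading frame had no stop within at least 90% of the parent's codons in 142 members and met one earlier in 63, and had no aligned start in 46.

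Most members were low. Detected here means that both libraries gave at least 1 TPM. By this, 58 of the 251 members (23.1%) were detected, against 34.2% of all genes and 8.79% of the 5281 other processed pseudogenes. The last set includes ribosomal protein copies whose symbols miss the rule, such as Gm8430. At 10 TPM or more in both replicates stood 27 members, or 10.8%, against 20.8% of all genes and 2.56% of other processed pseudogenes. At 100 TPM or more stood 11, or 4.38%, against 3.70% of all genes and 0.814% of other processed pseudogenes. Both replicates listed 95 members (37.8%) at 0, against 42.5% of all genes. The median member had 0.0700 TPM in the first replicate and 0.180 TPM in the second, and the median parent at 734 and 704 TPM. A count of 0 allows up to 3 counts, which for a member of 441 nt is 0.336 and 0.473 TPM in replicates 1 and 2. Lower levels were thus not measurable at this depth, counting error alone considered. Division of shared reads can leave more room. Of the members listed at 0 in both, Rpl30-ps10, Rpl30-ps9 and Rpl7a-ps11 had credibility intervals that reached 21.3 and 48.8, 27.2 and 38.1, and 20.8 and 30.9 TPM. The detection level separated close values: Rpl30-ps2, just inside, had 1.00 and 1.12 TPM, and Rps2-ps6, just outside, 0.970 and 1.03 TPM.

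A few members carried nearly all of the signal. The 251 summed to 6632 and 7082 TPM in the 2 replicates (6857 ± 318, SD, n = 2), beside 42773 and 41539 TPM for the 56 parents. Members therefore held 14.0 ± 0.807% (SD, n = 2) of the TPM of members and parents together, while they took 0.182% and 0.199% of all expected counts. The 11 highest members made up 90.7% of the members' TPM in replicate 1 and 85.6% in replicate 2. The other 240 held 1.25% and 2.10% of the family TPM.

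The 11 highest members are the same 11 that have no difference from their parent. None of the other 240 had every window in its parent. Rps23-ps1 was the highest, with 1336 and 1268 TPM in replicates 1 and 2 (1302 ± 47.6, SD, n = 2). Its parent Rps23, which encodes a protein of the decoding centre that guards the accuracy of translation, stood at 231 and 190 TPM. In both replicates the copy was several times higher than the coding gene, a log2 ratio of 2.63 ± 0.14 (SD, n = 2). The copy lies on chromosome 3 within the locus of Gm5148, whose exon is on the opposite strand and which had 4.58 and 5.91 TPM.

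**Figure D1:**
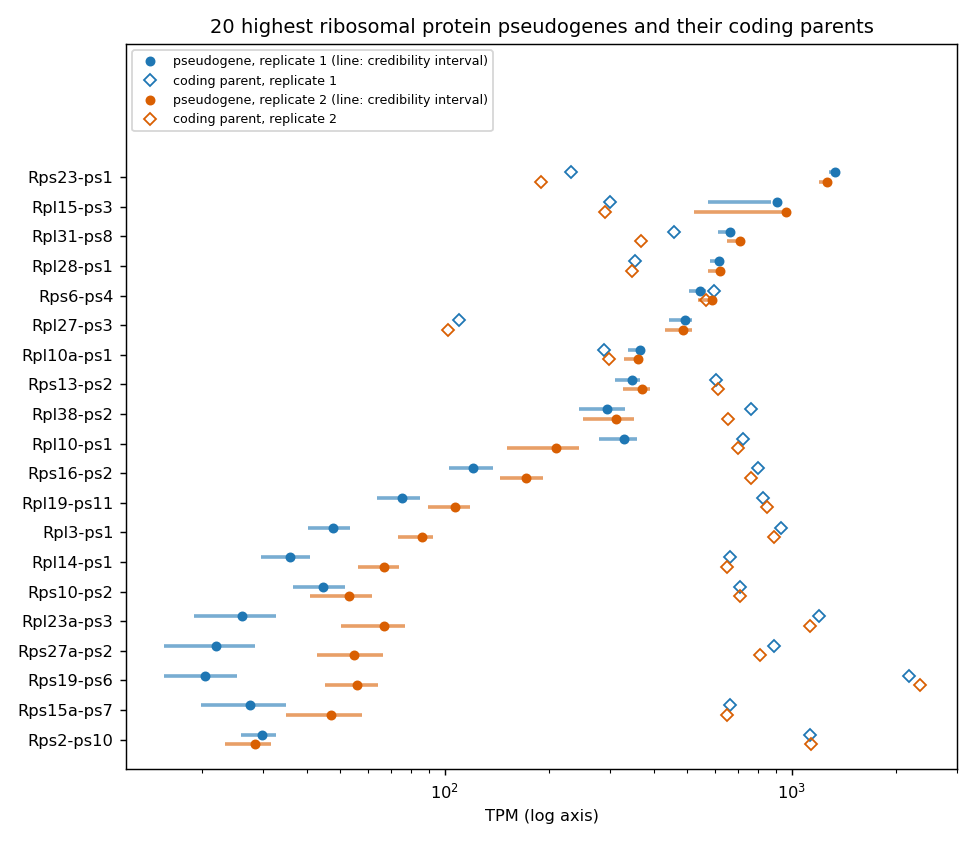
TPM on a log axis of the 20 highest members (filled circles, with the deposited credibility interval of each library as a line) and of their coding parents (open diamonds), replicate 1 in blue and replicate 2 in orange. From Rps23-ps1 down to Rpl10a-ps1 most members stand at or above their parents, and from Rps13-ps2 down they stand below them.

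Rpl15-ps3 followed with 906 and 961 TPM (933 ± 39.0, SD, n = 2) against 299 and 290 TPM for Rpl15, a large-subunit gene. In both replicates this member's TPM lay above the upper end of its own credibility interval, which spanned 572 to 874 TPM and 523 to 938 TPM. Rps23-ps1 did so too, narrowly, with upper ends of 1334 and 1262 TPM, whereas the other 18 of the 20 highest lay inside their intervals in both replicates. The maximum likelihood estimate and the posterior distribution of the same library thus differ for Rpl15-ps3, whose posterior mean was 749 and 803 TPM.

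Rpl31-ps8 had 662 and 711 TPM (686 ± 34.6, SD, n = 2), above the 457 and 369 TPM of Rpl31. Of the 21 Rpl31 copies it was the one detected, and the others stood at or below 1.16 TPM in both replicates. Rpl28-ps1, in an intron of Zranb3 on the opposite strand, had 619 and 621 TPM against 354 and 346 TPM for Rpl28. The replicates of Rpl28-ps1 were nearly equal, and the copy was the higher of the pair in both.

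Rpl27-ps3 on chromosome 18 had 493 and 487 TPM against 110 and 102 TPM for Rpl27. A further processed pseudogene named Gm11518 shares 312 windows with it and had 482 and 455 TPM, so 2 copies outside the coding gene took most of the Rpl27 signal in the tables. Rpl10a-ps1 had 365 and 361 TPM against 288 and 298 TPM for Rpl10a, which encodes the protein of the L1 stalk. These 6 members, Rps23-ps1, Rpl15-ps3, Rpl31-ps8, Rpl28-ps1, Rpl27-ps3 and Rpl10a-ps1, are the ones above their parent in both replicates, 2.41% of the 249 with a parent. In each the lower end of the member's interval also lay above the upper end of the parent's, in both replicates.

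Rps6-ps4 stood level with Rps6, the small-subunit protein phosphorylated by S6 kinase. It had 545 and 589 TPM against 596 and 568 TPM, below the parent in replicate 1 and above it in replicate 2. Rps13-ps2 had 347 and 371 TPM against 604 and 613 TPM for Rps13. Rpl38-ps2 had 294 and 311 TPM against 762 and 655 TPM for Rpl38, a large-subunit gene known in mice for its part in the translation of Hox messages. Rps16-ps2, in an intron of Adgrd1 on the opposite strand, had 121 and 172 TPM against 798 and 761 TPM for Rps16.

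Rpl10-ps1, in an intron of Pax6os1 on the same strand, had 329 and 209 TPM (269 ± 84.7, SD, n = 2), the widest spread between replicates among the 11 in absolute terms. Its parent Rpl10, whose protein takes part in joining the subunits, had 723 and 699 TPM. Rpl10-ps3, which the annotation classes as coding and which therefore is no member, shares all 546 windows with Rpl10-ps1 and moved the other way, from 179 to 393 TPM. The sum over Rpl10-ps1 and the 5 genes that share a window with it was 1232 and 1306 TPM. Rpl10-ps6, which the one stop-forming substitution above sets apart, had 1.77 and 4.5 TPM.

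**Figure D2:**
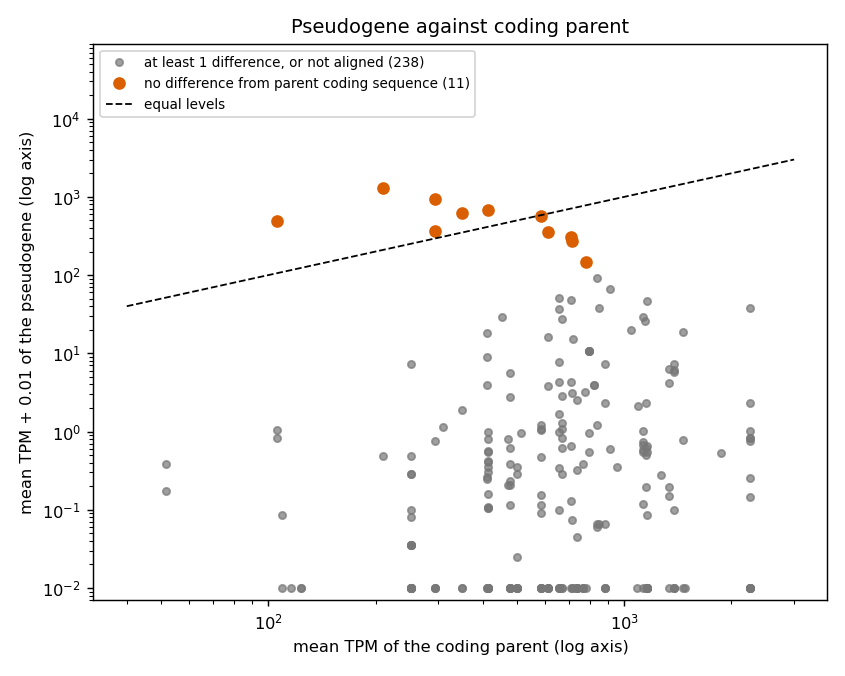
Mean TPM + 0.01 of each of the 249 members with a parent against the mean TPM of that parent, both on log axes; the dashed line marks equal levels, and orange points are the 11 members with no difference from the parent. The orange points lie above every grey point in height, and the line passes among them, whereas all grey points lie below it.

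Over the 249 members with a parent, the median log2 ratio of member to parent, on log2(TPM + 1), was -8.65, and over the detected members with a parent it was -6.09. By this ratio 96 members were below -9, 121 between -9 and -6, 21 between -6 and -3, 5 between -3 and 0, and 6 above 0. Parents ranged from a mean of 51.6 TPM for Rpl5 to 2261 TPM for Rps19. Thus the highest parent is not the one with the highest copy: Rps19, mutated in Diamond-Blackfan anaemia in humans, has 14 copies, of which Rps19-ps6 and Rps19-ps3 were detected, at 20.3 and 55.8 TPM and at 2.14 and 2.42 TPM. Coding ribosomal protein genes of other roots, which have no member here, had medians of 636 and 603 TPM over 25 genes.

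**Figure D3:**
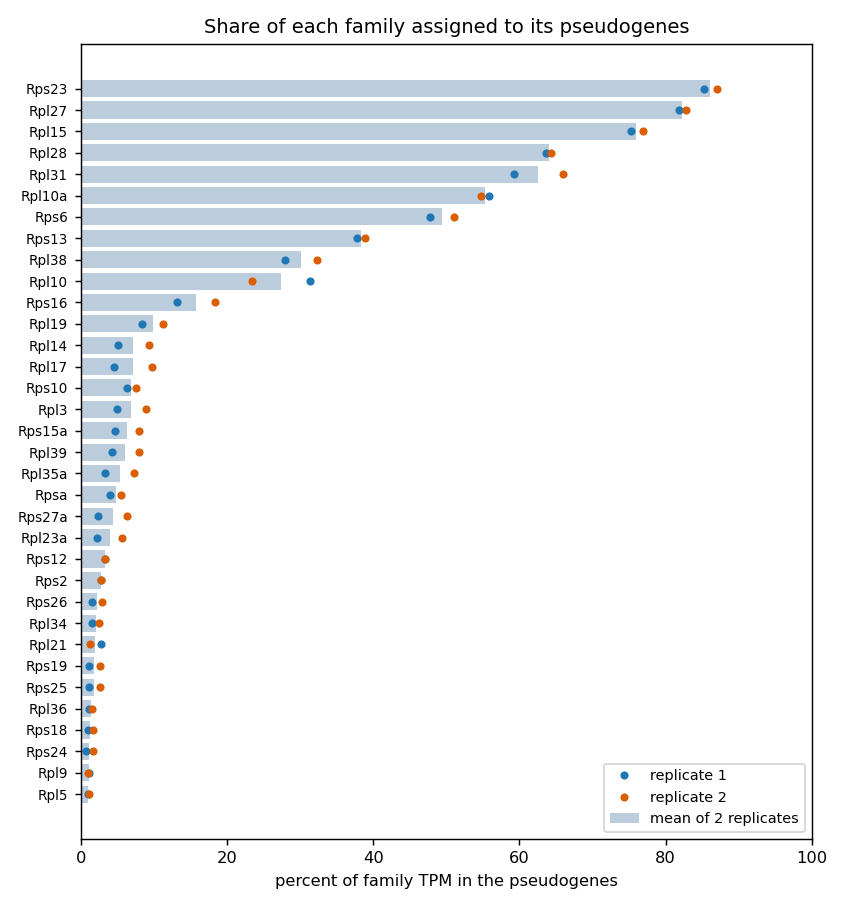
Percent of the summed TPM of parent and members that the members hold, for the 34 families with a mean of at least 1% (bars, mean of 2 replicates; points, each replicate). Pseudogenes under other symbols are not counted. Rps23 is at 86.1%, 6 families exceed 50% in both replicates, and the remaining 22 families are not drawn.

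The share of a family held by its members, with pseudogenes under other symbols not counted, ran from 86.1 ± 1.20% (SD, n = 2) for Rps23 to 0. Rpl27 followed at 82.3 ± 0.725%, Rpl15 at 76.0 ± 1.17%, Rpl28 at 64.0 ± 0.481%, Rpl31 at 62.6 ± 4.73%, Rpl10a at 55.3 ± 0.804% and Rps6 at 49.4 ± 2.24% (SD, n = 2 each). In 44 of the 56 families the members held under 10% in both replicates, and 17 parents had no detected member. Some of these families have abundant copies outside the members. The Rps27a share of 4.37% leaves out Gm8430, at 197 and 221 TPM in replicates 1 and 2. The Rpl21 share of 1.99% leaves out Gm10163, at 132 and 160 TPM. Each shares windows with a member of that family. Rps12 is a family with many low copies: of its 21, Rps12-ps9 alone was detected, at 7.53 and 7.22 TPM, and the family share was 3.33 ± 0.0539% (SD, n = 2). Rpl7a has 8 copies and a share of 0.126 ± 0.0151% (SD, n = 2). A family with many copies could thus hold a small share.

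The detected members were mostly those with few differences from the parent. All 11 members with no mismatch were detected. With 1 to 5 mismatches 34 of 52 (65.4%) were detected, with medians of 5.02 and 6.76 TPM, and with more than 5 mismatches 12 of 182 (6.59%), with medians of 0 in both replicates. By windows, 15 of the 28 members with no unique window were detected (53.6%) and held 91.1% and 86.4% of the members' TPM, and of the 95 with every window unique 5 were (5.26%). Across the 251 members, Spearman's rho of the percent of windows found in the parent with mean TPM was 0.667. The 2 members without a parent were entered at 0%. It is a description over genes that share libraries and family members. How much of each level comes from reads of the parent was not tested.

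**Figure D4:**
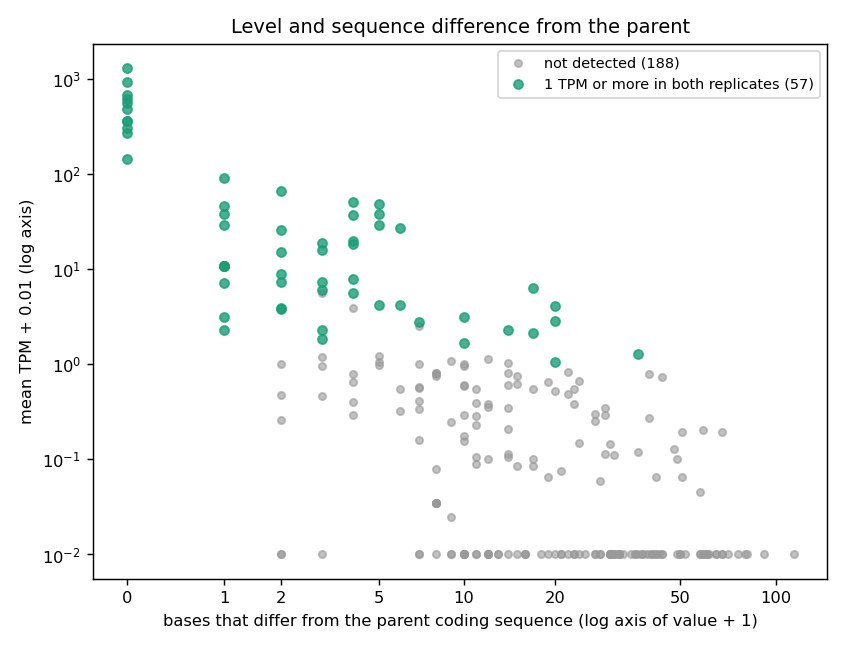
Mean TPM + 0.01 against the number of bases that differ from the parent's coding sequence (log axis of value + 1), for the 245 members aligned over at least 50% of it; green points are the 57 detected ones. The 11 members with 0 differences are all above 100 TPM, and most members with more than 20 differences lie at the bottom, where the level is 0.

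Just below the 11 came members with few differences. Rpl19-ps11, with the single substitution G191A, had 75.2 and 107 TPM against 825 and 851 TPM for Rpl19. Rpl3-ps1 on the X chromosome, a copy of the gene for a protein of the peptidyl transferase centre, had 47.6 and 86.2 TPM with 2 mismatches. Rpl14-ps1 had 35.7 and 66.7 TPM, Rps10-ps2 44.5 and 52.8 TPM, and Rps2-ps10, an annotated transcribed pseudogene in an intron of Pde6a, 29.8 and 28.4 TPM. Rpl23a-ps3, which carries A116T, had 26.1 and 66.6 TPM, and Rps15a-ps7, where a stop follows 37 codons, 27.4 and 47.0 TPM. Among the 20 highest, the credibility interval was widest relative to TPM in Rps15a-ps7 (0.522 of the TPM, mean of both libraries), Rps27a-ps2 (0.510), Rpl23a-ps3 (0.466), Rps19-ps6 (0.413) and Rpl15-ps3 (0.382), and narrowest in Rps23-ps1 (0.0464).

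The 4 identical Rpl35a copies were given the same estimate, 7.19 and 14.1 TPM each in replicates 1 and 2. Their expected counts were also equal, 43.9 and 61.3 per copy. The intervals show how little is known of any one copy: for Rpl35a-ps3 they spanned 0.000637 to 19.6 TPM and 0.000151 to 34.9 TPM in the 2 libraries. The 4 count as detected by TPM but not by the lower end of their intervals. Rpl35a-ps5 had 0 and 1.92 TPM and Rpl35a-ps7 0.560 and 0.530 TPM. In all, 14 members fall into 4 sets of identical sequence, and 44 members (17.5%, against 32.3% of all genes) had a lower end of at least 1 TPM in both replicates.

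The members best told apart from other annotated genes were low. Of the 183 members with over 50% of their windows unique, 23 (12.6%) were detected, and 11 of these 23 lie within another gene. Rps15a-ps7 and Rps25-ps1, at 11.9 and 27.8 TPM, were among the highest of them. Among the 5 detected members with every window unique were Rpl39-ps (21.7 and 36.1 TPM), Rpl36-ps3 (5.07 and 6.31 TPM), Rpsa-ps11 (1.08 and 1.5 TPM) and Rpl30-ps2. Rpl39-ps and Rpl36-ps3 need care, since their deposited lengths are 355 and 384 nt but their sequences in the later annotation are shorter. Their windows cover only the latter.

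By position, in an intron of a gene on the same strand 11 of 21 were detected (52.4%, medians of 1.77 and 3.69 TPM), on the opposite strand 17 of 50 (34.0%, medians of 0.440 and 0.690 TPM), and with no other gene 28 of 173 (16.2%, medians of 0). Median identity to the parent also differed, at 98.5%, 96.7% and 96.0%. No strand setting is given in the sources used here, so reads from a host's intron and from the pseudogene inside it cannot be told apart. By annotation class, 4 of the 6 transcribed processed pseudogenes were detected and 54 of the 245 others. On the X chromosome 3 of 35 members were detected (8.57%). Many of these 35 are Rps12 copies that lie close together, such as Rps12-ps11 to Rps12-ps18, at 0.0500 TPM or less in both replicates. The lowest share was on chromosome 10, with 0 of 8, and the highest on chromosomes 8 and 18, with 7 of 14 and 3 of 6. By subunit, 32 of 150 large-subunit copies (21.3%) and 26 of 101 small-subunit copies (25.7%) were detected.

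The lung label held: the 5 epithelial markers, Sftpc among them, were detected in both replicates and summed to 11758 and 15154 TPM. The 3 lung mesenchyme genes summed to 453 and 456 TPM, the 3 endothelial genes to 255 and 236 TPM and the 4 erythroid genes to 42509 and 49107 TPM. The replicates differed more in markers of other organs. The 4 liver genes summed to 47.1 and 399 TPM in replicates 1 and 2, the 3 skeletal muscle genes to 94.6 and 340 TPM and the 3 thymus genes to 8.53 and 23.4 TPM, with none of them at 0 in both, while the 3 heart genes summed to 649 and 427 TPM. In bulk tissue fewer cells of a type and less RNA per cell cannot be told apart. The expected counts of replicate 1 totalled 38852470 and those of replicate 2 totalled 27145411. The part of these differences in the values that follow was not tested.

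Most members stood higher in replicate 2. Differences are on log2(TPM + 1), replicate 2 minus replicate 1, for genes whose 2 values average 1 TPM or more. Of 69 such members 54 were higher in replicate 2 (78.3%), against 50.2% of all genes and 23.2% of the parents. It was 78.7% in the other processed pseudogenes, which include copies of the same families under other symbols, such as Gm8430. In the 63 processed pseudogenes with a "-ps" symbol outside the member rule it was 84.1%, with a median difference of 0.41. The median difference was 0.50 in the members, 0.0015 in all genes, -0.052 in the parents and 0.36 in the other processed pseudogenes. For the members it was 0.23 with TMM-scaled counts and 0.71 with counts divided by DESeq2 size factors, so its size depends on the scale, with the same sign in all 3. A difference of 2-fold or more upward was seen in 10 members (14.5%), against 1.92% of all genes and 10.5% of other processed pseudogenes. Downward it was seen in 2 members (2.90%), against 0.742% of all genes and 1.07% of other processed pseudogenes. In either direction it was 17.4% of these members and 2.67% of all genes. With 1 library on each side these are differences between 2 pools, given without a test.

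Of the 11 members without differences from the parent, 7 were higher in replicate 2, with a median difference of 0.082, and none reached 2-fold. Rpl10-ps1, at -0.65, and Rps16-ps2, at 0.51, differed most among them, both with intervals that did not overlap, and the other 9 lay between -0.07 and 0.11. The other 58 members of the 69 had a median difference of 0.67, and 47 of them were higher in replicate 2. The 12 members at 2-fold or more all belong to these 58. Of the 69, 30 had over 50% of their windows unique, and 26 of these were higher in replicate 2, with a median difference of 0.61. Of the 15 with no unique window 11 were higher, with a median of 0.095. The part of shared reads in these differences was not tested.

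The largest upward difference was in Rpl18-ps2, 0.0300 and 7.82 TPM, a log2 difference of 3.10. Its intervals, 0.168 to 4.88 TPM and 3.97 to 15.7 TPM, overlapped, and the replicate 1 value lay below its own interval. Rpl36-ps12, in an intron of Sumf1 on the same strand, had 2.19 and 9.98 TPM (1.78), and Rpl17-ps10 7.78 and 29.0 TPM (1.77), both with intervals that did not overlap. Rpl30-ps8 had 0.150 and 2.22 TPM with overlapping intervals. Rps19-ps6, in an intron of Tecpr2, had 20.3 and 55.8 TPM (1.42), Rpl23a-ps3 differed by 1.32 and Rps27a-ps2, shown above with its single substitution, by 1.28 with 21.9 and 54.8 TPM. The last 3 had no overlap between their intervals.

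Rpl21-ps15 (ENSMUSG00000083596) had the largest downward difference. It had 11.2 TPM and 112 expected counts in replicate 1 and 0 of both in replicate 2, a log2 difference of -3.61. The intervals overlapped almost whole, 2.78 to 28.6 TPM against 0.000265 to 24.5 TPM, so the values do not separate the pools. It lies in an intron of Wnk3 on the opposite strand. Of its 384 windows 58 were unique, 236 were in Rpl21, and 28 other genes shared at least one. Among these, Gm10163, a processed pseudogene, had 132 and 160 TPM, and Gm10240 and Gm13370, which share the most windows with it, were listed at 0 in both. The sum over Rpl21-ps15 and those 28 genes was 650 and 635 TPM. Of the 12 Rpl21 copies Rpl21-ps8 was the one detected, with 1.5 and 4.06 TPM.

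Rpl9-ps4 had 3.38 and 1.20 TPM, a log2 difference of -0.99, Rpl10-ps1 one of -0.65, and Rpsa-ps12, with 3.64 and 2.09 TPM, one of -0.59. The intervals of Rpl10-ps1 did not overlap, 279 to 359 TPM and 151 to 243 TPM. Of the 12 members at 2-fold or more in either direction, 5 had overlapping intervals.

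Where a member and the genes that share a window with it were summed, the replicates came close together. For the 20 highest members the difference of the member alone ran from -0.65 to 1.42, and that of the sum from -0.13 to 0.12. In 16 of the 20 the member differed more than its sum did. Rps19-ps6 differed by 1.42, and its sum with 7 other genes, 2208 and 2401 TPM, by 0.12. Rpl17-ps10 differed by 1.77, and its sum with 9 others was 444 TPM in both replicates. Where the parent holds most of a sum, as Rps19 does with 2183 and 2338 TPM, a small member can move with little change in it. In other sums the member holds most: Rps23-ps1 had 1336 and 1268 TPM of sums of 1576 and 1470 TPM.

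**Figure D5:**
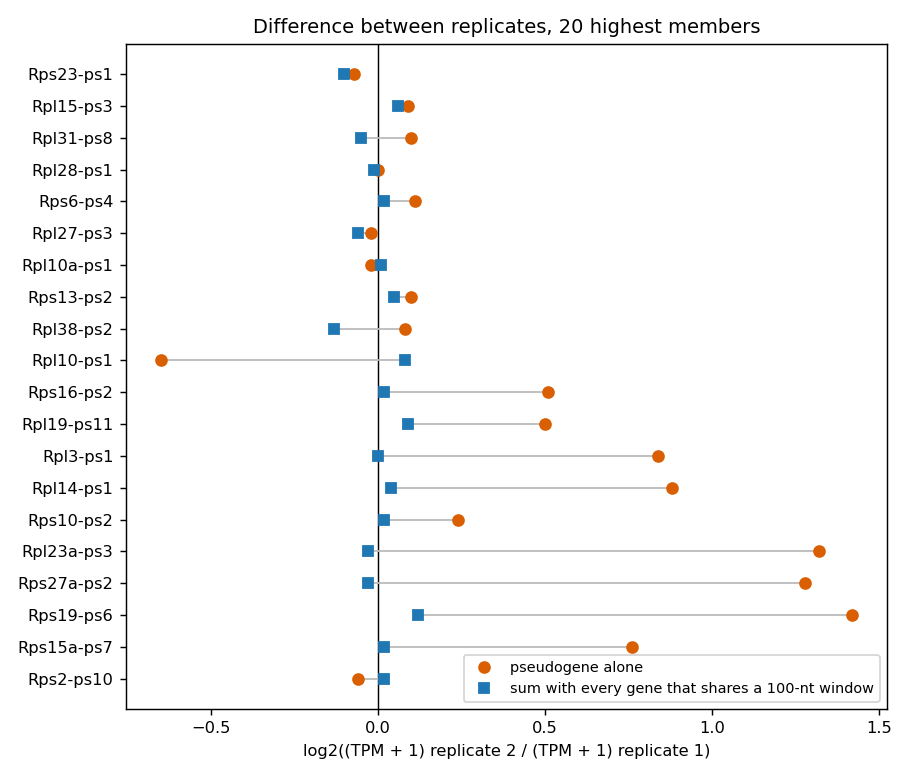
Difference between replicates on log2(TPM + 1), replicate 2 minus replicate 1, for the 20 highest members alone (orange circles) and for the sum with every gene that shares a 100-nt window (blue squares). The squares lie between -0.13 and 0.12 and the circles between -0.65 and 1.42.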

How the data were processed

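Expected counts were deposited by the authors as estimates per gene in which reads that match several genes are divided among them, per the file headers, on mm10 and GENCODE M4 as deposited notes state. The TPM values the authors deposited, maximum likelihood and posterior mean, are per effective length and scaled to 1 total in each library. The score columns deposited beside them bound a credibility interval for that library. Aligner, quantifier and strand setting are not given in the sources used here. Symbols, classes, coordinates and sequences came from GENCODE M21, so a member's sequence can differ from the one quantified: length was equal for 218 members and differed for 33, Rpl27-ps3 among them.

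Members were aligned locally to the parent's coding sequence (Biopython 1.88; match 2, mismatch -3, gap opening -6, extension -2), and windows were searched in 101510 of 103639 deposited transcripts. No genome was searched. Named members are Rpl21-ps15, the 20 highest, those above their parent, the 5 largest replicate differences each way and the 5 widest intervals; the identical Rpl35a copies, fully unique members, Rpl10-ps6, Rpl39-ps and single members of large families were named after their values were seen. Some members are not reported here. The members and lists were chosen with earlier results of these data known. Depth limits low members: total counts are given with the results. On simulated counts, the 2-fold rule, upward only, called 43 of 15293 unchanged genes, 33 of 100 with a true 2-fold change and 99 of 100 with a 4-fold one. Counts of each gene were drawn on their own, with no reads divided between similar genes. These rates therefore do not carry over to members that share sequence. Alternatives used edgeR 4.0.16 and DESeq2 1.42.0 for scaling of the counts only.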

Additional observations from a re-analysis of the deposited data

How the results depend on the processing

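The count of 58 detected members was 37 at 5 TPM and 23 among members with over 50% of windows unique; the other alternatives, from 44 by lower bounds to 78 at 0.5 TPM, stayed within 1.5-fold. Leaving out a replicate gave 63 to 74. The members' share of family TPM, 14.0%, was 10.2% by expected counts, and 12% and 15.1% with the members' lower and upper bounds. It was 1.91% without the 11 members whose every window is in the parent. It was 13.4% to 14.6% with 1 replicate left out. Without those 11 members 0 were above their parent, against 6 with them (4 by expected counts, and 6 to 7 with 1 replicate left out). The median log2 ratio, -8.65, was -8.41 by posterior means, -11.2 by expected counts, -11.0 with a pseudocount of 0.1 and -6.09 for detected members, and -8.84 to -8.53 with 1 replicate left out. At 2-fold between replicates were 12 of 69 members, and 7 of these 69 with TMM scaling and 17 with DESeq2 size factors. In smaller sets it was 7 of the 41 with a mean of at least 5 TPM, and 5 of the 30 with over 50% of windows unique. Higher in replicate 2 were 54 of 69 by TPM, 53 with TMM scaling and 52 with DESeq2 size factors. Their median difference was 0.50, 0.23 and 0.71 in that order, on log2 of the scaled value + 1, with 10, 6 and 14 members at 2-fold or more upward. The 1 was added to unlike units, so these medians and 2-fold counts do not compare the scalings themselves. The alternatives based on windows or on equal length were added after seeing the data. No paired analysis was possible because there is no second group to pair with; member-to-parent ratios are already taken within a library. The windows cover annotated transcripts of the later annotation only, 2 pools leave no exact test that could pass a threshold, and libraries of these depths do not resolve members below about the level that 3 counts give.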

Other observations

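Of the 6 "-ps" symbols that the annotation classes as coding, and which are therefore no members, Rpl10-ps3, Rpl9-ps6 and Rps12-ps3 stood at 179 and 393 TPM, 28.4 and 58.0 TPM, and 26.3 and 36.8 TPM in replicates 1 and 2. Rpl36a-ps1 had 2.88 and 7.94 TPM, and Rpl9-ps1 and Rpl36-ps4 were listed at 0 in both. All 4 of those above 0 were higher in replicate 2, as most members were. Gm8430, a processed pseudogene that shares 204 windows with Rps27a-ps2 but carries no ribosomal protein symbol, had 197 and 221 TPM, above all members outside the 11 highest, so a rule based on symbols leaves out abundant copies of the same families.

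Rpl13-ps1 and Rpl17-ps11 matched their named parents over only 10 and 16 bases. The closest coding sequence of a ribosomal protein gave them no longer match than 23 and 16 bases.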
